A study of Mus musculus with 71 samples.

Results

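The collagen genes were examined in adipocytes treated with rosiglitazone (RSG), an agonist of the nuclear receptor PPARγ. A gene was taken as a member where its mouse symbol had the form Col, a number, a and a number, and where its probe set was annotated to that gene alone. The rule gave 36 genes read by 58 probe sets, out of 22626 probe sets that were not controls. Of the 36 genes, 9 were fibrillar collagens (17 probe sets), 6 were chains of type IV (9 probe sets), 3 were chains of type VI (4 probe sets) and 18 belonged to other types (28 probe sets).

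Collagens are extracellular proteins whose chains wind around each other into a helix. Fibrillar types are cut at both ends after secretion and assemble into the crosslinked fibrils of connective tissue. Type IV forms the sheet-like network of basement membranes, and type VI forms beaded filaments. In fat, each adipocyte sits in a basement membrane and is surrounded by a mesh rich in type VI, and precursor cells lay down fibrillar collagen that is remodelled as they fill with lipid.

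RNA was measured on 71 Affymetrix arrays from mouse cell lines, 35 of 3T3-L1 (a preadipocyte line) and 36 of C3H/10T1/2 (a mesenchymal line), both differentiated to adipocytes in culture. Cells received 1 μM RSG or the vehicle DMSO for 1, 2, 4, 7, 24 or 48 hrs, with 3 arrays in each of the 24 groups, except the DMSO group of 3T3-L1 at 2 hrs, which had 2. Every group, DMSO included, had met RSG before: the differentiation medium held 100 nM RSG for 3T3-L1 and 10 μM for C3H/10T1/2, and a washout of 24 hrs without it followed. The replicates came from separate batches of cells by the study's methods, and 3 arrays a group limit the precision of every value below.

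The values are MAS5 signals on a linear scale, set by the submitters to a common mean on each array. The methods gave a presence level, below which a probe set counts as absent, and the 95th percentile of the bacterial control signals lay at 19.92, next to that level. The median signal of an array lay between 50.2 and 64.2 in 3T3-L1 and between 38.2 and 46.9 in C3H/10T1/2. Within a line, a probe set was tested if the mean of any of the 12 groups was at the presence level or above. That left 44 collagen probe sets of 29 genes in 3T3-L1 and 38 of 27 genes in C3H/10T1/2, with 30 genes tested in at least 1 line and 26 in both. Probe sets of Col4a4, Col9a2, Col9a3, Col10a1, Col17a1 and Col22a1 were tested in neither line. Where a gene had several probe sets, as 19 of the 36 did, the one with the highest mean signal over all arrays stood for the gene and is called the brightest. A probe set was called higher or lower at an adjusted p under 0.05 (limma, with Benjamini-Hochberg adjustment across every probe set tested in that line).

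Promoters of 3 members are shown first, from RefSeq on the build GRCm38.p6, as the 250 bases before and 50 after an annotated start. Col1a2 encodes the second chain of type I collagen and is shown because it was lower with RSG in both lines. Col4a1 and Col4a2 encode the main chains of type IV and are shown because they lie head to head on opposite strands. Their annotated starts lie 21 bases apart, with the transcripts overlapping at their first bases and no gap between them. Both windows share 78 bases. Capitals mark the letters CCAAT or, on the other strand, ATTGG, the element bound by the factor NF-Y.
Col1a2, chr6:4505368-4505667, plus strand: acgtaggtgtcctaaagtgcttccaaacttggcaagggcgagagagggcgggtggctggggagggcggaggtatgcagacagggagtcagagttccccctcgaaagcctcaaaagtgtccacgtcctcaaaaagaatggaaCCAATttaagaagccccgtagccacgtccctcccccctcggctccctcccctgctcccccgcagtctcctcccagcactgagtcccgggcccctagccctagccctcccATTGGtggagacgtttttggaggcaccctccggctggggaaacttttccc
Col4a1, chr8:11312777-11313076, minus strand: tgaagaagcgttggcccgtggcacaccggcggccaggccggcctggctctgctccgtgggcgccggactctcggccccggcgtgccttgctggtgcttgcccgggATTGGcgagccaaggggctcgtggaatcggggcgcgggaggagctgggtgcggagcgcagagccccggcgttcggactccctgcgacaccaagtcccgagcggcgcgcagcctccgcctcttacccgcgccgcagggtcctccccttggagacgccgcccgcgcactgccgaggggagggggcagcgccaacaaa
Col4a2, chr8:11312555-11312854, plus strand: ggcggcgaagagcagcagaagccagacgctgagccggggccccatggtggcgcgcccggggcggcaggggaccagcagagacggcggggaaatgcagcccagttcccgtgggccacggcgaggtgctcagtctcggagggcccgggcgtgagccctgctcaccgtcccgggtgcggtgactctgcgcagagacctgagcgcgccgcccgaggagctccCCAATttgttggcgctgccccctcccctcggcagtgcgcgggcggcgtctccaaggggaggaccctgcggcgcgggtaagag
Windows were found for 27 of the 36 genes. Some genes had more than 1 window, so that there were 30. CCAAT in either direction lay in 12 of these 30 windows (40%), and in 12289 of all 32851 windows (37.4%). AGGTCA, the half-site of nuclear receptors such as PPARγ, lay in 5 of the 30 (16.7%) and in 16.3% of all windows, and in none of the 3 windows printed. These matches describe the letters of the windows only.

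A set of collagen genes, most of them fibrillar, was lower with RSG at 24 and 48 hrs. By the fit without a replicate block, none was higher past the threshold. No collagen probe set was called at 1, 2, 4 or 7 hrs in either line by the fit without a replicate block. In 3T3-L1, 7 of 44 collagen probe sets (15.9%) were lower at 24 hrs, against 6.97% of all 18028 tested, and 11 of 44 (25%) were lower at 48 hrs, against 8.09%. The count for C3H/10T1/2 was 6 of 38 (15.8%) lower at 24 hrs, against 4.07% of all 16123 tested, and 10 of 38 (26.3%) were lower at 48 hrs, against 2.62%. The count of collagen probe sets called higher was 0 at both times in both lines, where the share of all probe sets called higher was 4.79% at 24 hrs and 6.2% at 48 hrs for 3T3-L1, and 3.65% and 2.79% for C3H/10T1/2. At an unadjusted p under 0.05, 1 collagen probe set was higher at each of these times in 3T3-L1 and 0 in C3H/10T1/2.

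Over all tested collagen probe sets, the median log2 fold change of RSG over DMSO in 3T3-L1 was -0.05 at 24 hrs and -0.30 at 48 hrs, where the median of all probe sets was -0.01 and -0.03. For C3H/10T1/2 it was -0.33 and -0.37, where that of all probe sets was -0.07 and -0.01. Taking the brightest probe set of each gene, the median in 3T3-L1 was 0.03 at 24 hrs and -0.21 at 48 hrs. The earlier times held few differences. At 1, 2, 4 and 7 hrs, the share of all probe sets called in either direction was 0.0666%, 0.172%, 0.716% and 2.04% for 3T3-L1, and 0.0434%, 0.229%, 0.763% and 2.85% for C3H/10T1/2. Among collagen probe sets, an unadjusted p under 0.05 was seen for 2 higher at 2 hrs and 2 lower at 7 hrs in 3T3-L1, and for 1 higher at 1 hr and 3 lower at 7 hrs in C3H/10T1/2, and the smallest adjusted p among them was 0.225 for 3T3-L1 and 0.233 for C3H/10T1/2.

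**Figure D1:**
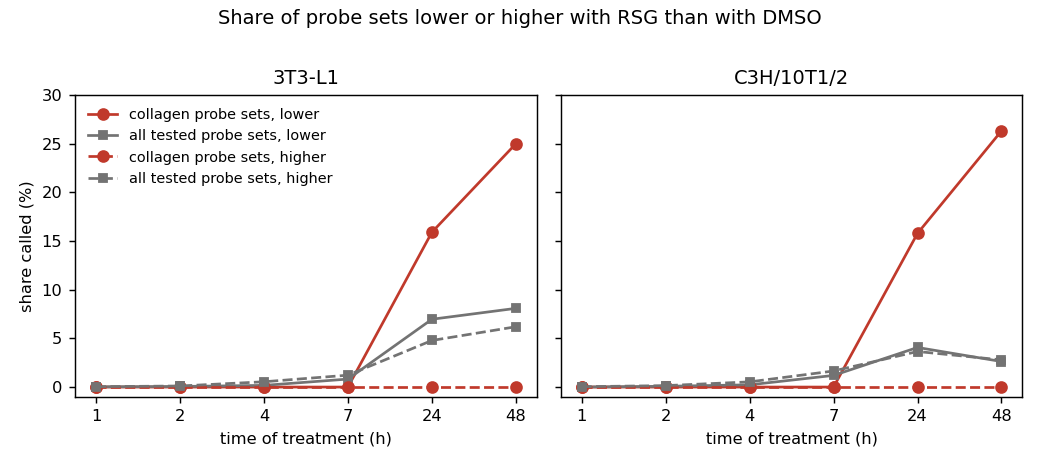
Share of probe sets called lower (solid lines) or higher (dashed lines) with RSG than with DMSO, in percent, at each time of treatment, for collagen probe sets (red circles) and for all tested probe sets (grey squares). Collagen probe sets stay at 0 up to 7 hrs and reach 25% lower at 48 hrs in 3T3-L1 and 26.3% in C3H/10T1/2, with none higher.

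In C3H/10T1/2, arrays with the same replicate number deviated together, and with the replicate number as a block 11 collagen probe sets were lower at 24 hrs (7.27% of all probe sets were with this block) and 16 at 48 hrs (4.87%). Single arrays mattered for the counts. For 3T3-L1 at 24 hrs, omitting RSG replicate 1 left 3 and omitting DMSO replicate 3 left 4, while at 48 hrs omitting RSG replicate 1 left 6, omitting DMSO replicate 2 left 5 and omitting DMSO replicate 3 left 7. For C3H/10T1/2 at 24 hrs, omitting RSG replicate 1, RSG replicate 2 or DMSO replicate 1 left 2, and omitting DMSO replicate 2 or 3 left 3. At 48 hrs, omitting DMSO replicate 1 left 4, omitting RSG replicate 2 left 5, and omitting RSG replicate 1 or DMSO replicate 2 left 6. Of the 34 calls at both times, 9 were kept whichever array was left out. These were Col1a2 (1423110_at) at both times in 3T3-L1 and at 48 hrs in C3H/10T1/2, the brightest probe set of Col1a2 at 24 hrs in C3H/10T1/2, Col3a1 (1427884_at) at both times in 3T3-L1, Col5a2 at 24 hrs in 3T3-L1, Col5a2 (1450625_at) at 48 hrs in C3H/10T1/2, and Col6a2 (1426947_x_at) at 48 hrs in 3T3-L1. No direction turned in any of these refits.

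All 3 RSG arrays lay below all 3 DMSO arrays for 8 of 44 collagen probe sets at 24 hrs in 3T3-L1 (18.2%, against 15.6% of all probe sets) and for 19 of 44 at 48 hrs (43.2%, against 14.4%). This was so in C3H/10T1/2 for 17 of 38 at 24 hrs (44.7%, against 14.6%) and for 18 of 38 at 48 hrs (47.4%, against 10.5%). At 24 hrs in 3T3-L1 the collagen share was therefore near that of all probe sets.

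**Figure D2:**
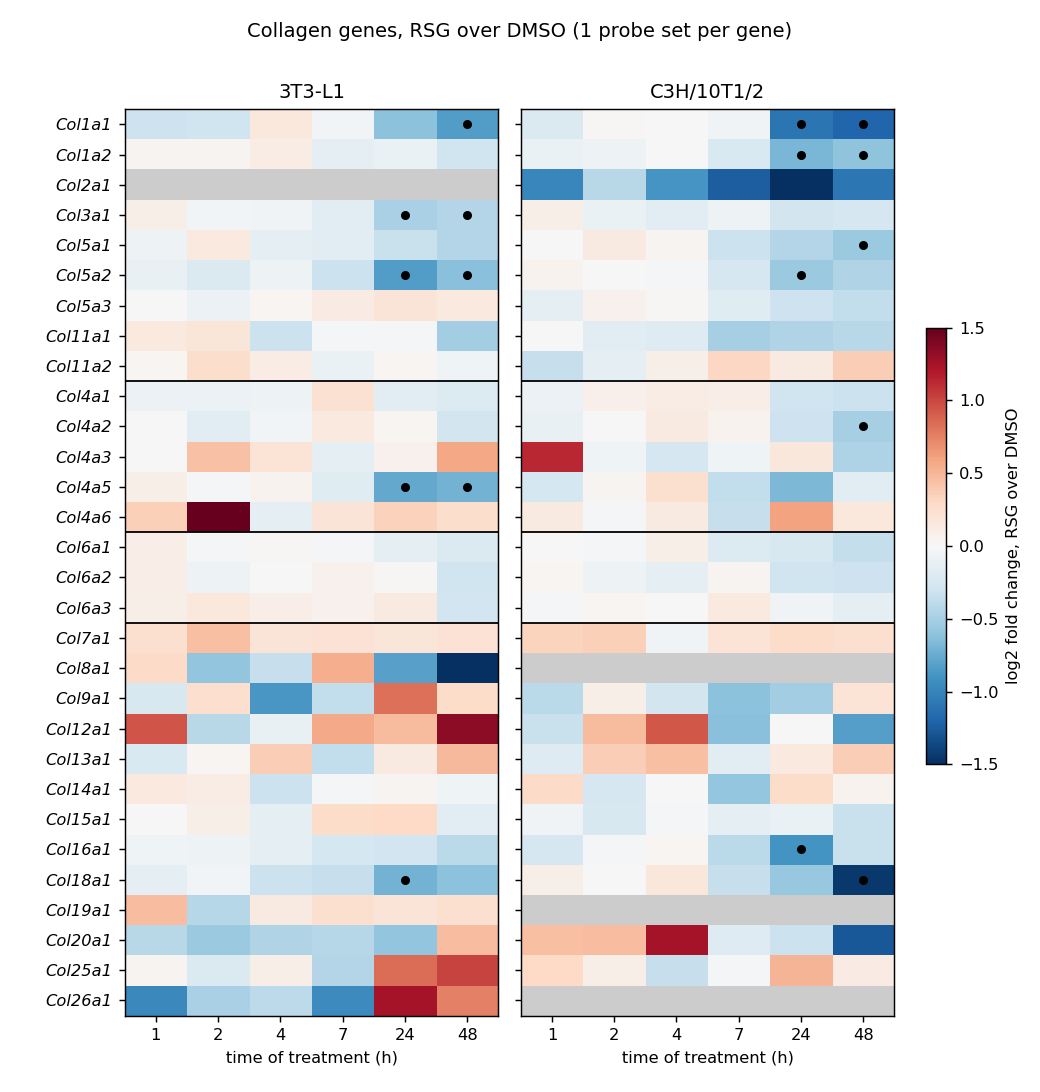
Log2 fold change of RSG over DMSO for the brightest probe set of each of the 30 tested collagen genes (rows, grouped by class) at each time (columns). Blue is lower and red higher with RSG, colours stop at 1.5 in either direction, grey marks a gene that was not tested in that line, and black dots mark calls; the dots lie in the columns of 24 and 48 hrs, most of them in the fibrillar block at the top.

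Fibrillar collagens held most of the lower calls. Counts by class, here and below, can be set beside the share of all tested probe sets called lower. For 3T3-L1 this share was 6.97% at 24 hrs and 8.09% at 48 hrs. It was 4.07% and then 2.62% for C3H/10T1/2. Of 15 fibrillar probe sets tested in each line, 3T3-L1 had 4 lower at 24 hrs and 8 at 48 hrs, and C3H/10T1/2 had 4 and 6. Their median log2 fold change was -0.52 and -0.63 for 3T3-L1, and -0.45 and -0.60 for C3H/10T1/2. The genes behind these calls were Col1a1 and Col1a2, the chains of type I, Col3a1, which forms fibrils together with type I, Col5a1 and Col5a2, the chains of type V that start such fibrils, and Col11a1, a chain of type XI known from cartilage.

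Col1a2 was lower at both times in both lines by probe set 1423110_at. In 3T3-L1 its signals at 24 hrs were 828.0, 895.8 and 1039.6 with RSG, against 1540.1, 1432.3 and 1671.0 with DMSO. At 48 hrs they were 827.5, 779.9 and 819.8 with RSG, against 2242.0, 1651.9 and 1572.8 with DMSO. The groups did not overlap at either time, and the log2 fold change was -0.75 (SE 0.12, adjusted p = 5.28e-05) and -1.15 (SE 0.12, adjusted p = 3.1e-08). The C3H/10T1/2 signals at 24 hrs were 487.6, 583.5 and 513.1 with RSG, against 922.9, 903.2 and 739.6 with DMSO, a log2 fold change of -0.69 (SE 0.19, adjusted p = 0.0218). At 48 hrs they were 423.9, 418.0 and 455.6 with RSG, against 729.8, 842.8 and 720.7 with DMSO (-0.82, SE 0.19, adjusted p = 0.00719). Every RSG array again lay below every DMSO array.

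The brightest probe set of Col1a2, 1450857_a_at, gave the same call in C3H/10T1/2 and none in 3T3-L1. At 24 hrs in C3H/10T1/2 it read 2349.8, 2506.4 and 2392.6 with RSG, against 3964.3, 3848.8 and 3825.4 with DMSO (-0.68, SE 0.14, adjusted p = 0.00255). At 48 hrs it read 2143.1, 2323.1 and 1928.5 with RSG, against 3128.2, 3465.5 and 3072.7 with DMSO (-0.60, SE 0.14, adjusted p = 0.00927). These groups stood well apart. In 3T3-L1, where the same probe set averaged 6975 over the DMSO arrays, the log2 fold change was -0.10 at 24 hrs (adjusted p = 0.819) and -0.30 at 48 hrs (adjusted p = 0.316). The 2 probe sets of Col1a2 therefore differed in size of effect in 3T3-L1, and which part of the transcript each reads was not analysed here.

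Col1a1, the partner chain of type I, was lower in 3T3-L1 at 48 hrs and in C3H/10T1/2 at both times. Its brightest probe set, 1423669_at, read 951.3, 643.8 and 786.9 with RSG at 48 hrs in 3T3-L1, against 1014.6, 1690.6 and 1591.3 with DMSO, a log2 fold change of -0.83 (SE 0.23, adjusted p = 0.01). The highest RSG array came close to the lowest DMSO array, and the call was lost without RSG replicate 2 or DMSO replicate 2. At 24 hrs the signals were 505.5, 811.3 and 759.6 with RSG, against 768.3, 1102.4 and 1311.6 with DMSO, which overlapped (-0.61, adjusted p = 0.0768).

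Signals of Col1a1 in C3H/10T1/2 were 515.2, 502.5 and 893.2 with RSG at 24 hrs, against 1666.7, 1119.1 and 1195.7 with DMSO (-1.09, SE 0.33, adjusted p = 0.0353). The values at 48 hrs were 542.1, 404.4 and 580.1 with RSG, against 1412.3, 974.5 and 1105.5 with DMSO (-1.19, SE 0.33, adjusted p = 0.0239). The groups did not overlap, although both calls were lost in 4 or 5 of the 6 refits that left out an array. The dimmer probe set of Col1a1, 1455494_at, was called only in 3T3-L1 at 48 hrs (-0.95, adjusted p = 0.0455), with groups that overlapped, and not in C3H/10T1/2, where its log2 fold change was -0.43 and -0.35.

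Col3a1 was lower in 3T3-L1 by both of its probe sets at both times. The brightest, 1427883_a_at, read 2528.9, 3346.9 and 2960.4 with RSG at 24 hrs, against 3869.2, 4540.3 and 3960.7 with DMSO (-0.49, SE 0.12, adjusted p = 0.00592). The values at 48 hrs were 2964.7, 3133.8 and 2599.5 with RSG, against 3790.1, 4224.1 and 3798.6 with DMSO (-0.44, adjusted p = 0.011). The dimmer probe set showed a larger difference.

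That probe set, 1427884_at, read 169.6, 248.7 and 240.3 with RSG at 24 hrs in 3T3-L1, against 369.5, 622.9 and 529.4 with DMSO, a log2 fold change of -1.20 (SE 0.22, adjusted p = 0.000297). At 48 hrs it read 176.7, 311.3 and 222.3 with RSG, against 418.8, 555.4 and 492.9 with DMSO (-1.08, SE 0.22, adjusted p = 0.000733). None of these groups overlapped. The brightest probe set of Col3a1 was not called in C3H/10T1/2 (-0.27 and -0.26, adjusted p = 0.291 and 0.397). There 1427884_at read 575.3, 731.2 and 495.8 with RSG at 48 hrs, against 1001.3, 963.0 and 948.2 with DMSO (-0.71, adjusted p = 0.102), and with the replicate block its adjusted p was 0.0041 at 24 hrs and 0.000107 at 48 hrs.

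Col5a2 was lower in both lines. In 3T3-L1 its brightest probe set, 1422437_at, read 643.2, 889.2 and 864.7 with RSG at 24 hrs, against 1143.7, 1521.7 and 1616.7 with DMSO (-0.84, SE 0.17, adjusted p = 0.000784). After 48 hrs they were 735.9, 970.5 and 767.5 with RSG, against 1004.4, 1260.3 and 1601.1 with DMSO (-0.63, SE 0.17, adjusted p = 0.00884). The RSG arrays lay below the DMSO arrays at both times, narrowly at 48 hrs. Signals of C3H/10T1/2 at 24 hrs were 1219.1, 1149.7 and 1053.3 with RSG, against 1998.7, 1648.0 and 1434.0 with DMSO (-0.56, SE 0.16, adjusted p = 0.0253). At 48 hrs the log2 fold change was -0.45 (adjusted p = 0.0956, with the replicate block 0.00302). The second probe set, 1450625_at, read 131.5, 148.0 and 125.3 with RSG at 48 hrs in C3H/10T1/2, against 273.6, 199.5 and 284.4 with DMSO (-0.89, SE 0.20, adjusted p = 0.00416). Without the block it gave no call in 3T3-L1 (-0.74 and -0.69, adjusted p = 0.0719 and 0.0879).

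Col5a1 was lower at 48 hrs in both lines by probe set 1434479_at. In 3T3-L1 it read 182.9, 236.0 and 223.6 with RSG, against 318.6, 312.3 and 279.7 with DMSO (-0.51, SE 0.15, adjusted p = 0.0182). Signals in C3H/10T1/2 were 263.1, 207.6 and 253.6 with RSG, against 427.4, 320.3 and 381.1 with DMSO (-0.64, SE 0.17, adjusted p = 0.022). The groups were separate in both lines, and in 3T3-L1 this probe set was not lower at 24 hrs (0.15, adjusted p = 0.609). The brightest probe set, 1416740_at, read 234.3, 264.8 and 286.9 with RSG at 48 hrs in C3H/10T1/2, against 374.3, 390.9 and 385.7 with DMSO (-0.55, SE 0.15, adjusted p = 0.027). It gave no call in 3T3-L1 (-0.44 at 48 hrs, adjusted p = 0.239), and at 24 hrs in C3H/10T1/2 its adjusted p was 0.0827, with the replicate block 0.0276.

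Col11a1 was called by a dim probe set only. In 3T3-L1 at 48 hrs, 1449154_at read 12.3, 23.4 and 21.9 with RSG, against 39.8, 52.1 and 51.7 with DMSO (-1.36, SE 0.46, adjusted p = 0.0451). One RSG array was under the presence level, and the call was lost in each of the 6 refits that left out an array. The brightest probe set of Col11a1 was not called (-0.53, adjusted p = 0.109). Col5a3, the remaining chain of type V, averaged 1218 with RSG at 48 hrs in C3H/10T1/2, against 1566 with DMSO (-0.37, adjusted p = 0.0571, with the replicate block 0.0347), and 660 against 598 in 3T3-L1 (0.15, adjusted p = 0.658). Col11a2 was not called. Col2a1, the fibrillar collagen of cartilage, averaged 5.0 with RSG at 24 hrs in C3H/10T1/2, against 21.4 with DMSO (-2.04, adjusted p = 0.14), mostly under the level for presence.

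**Figure D3:**
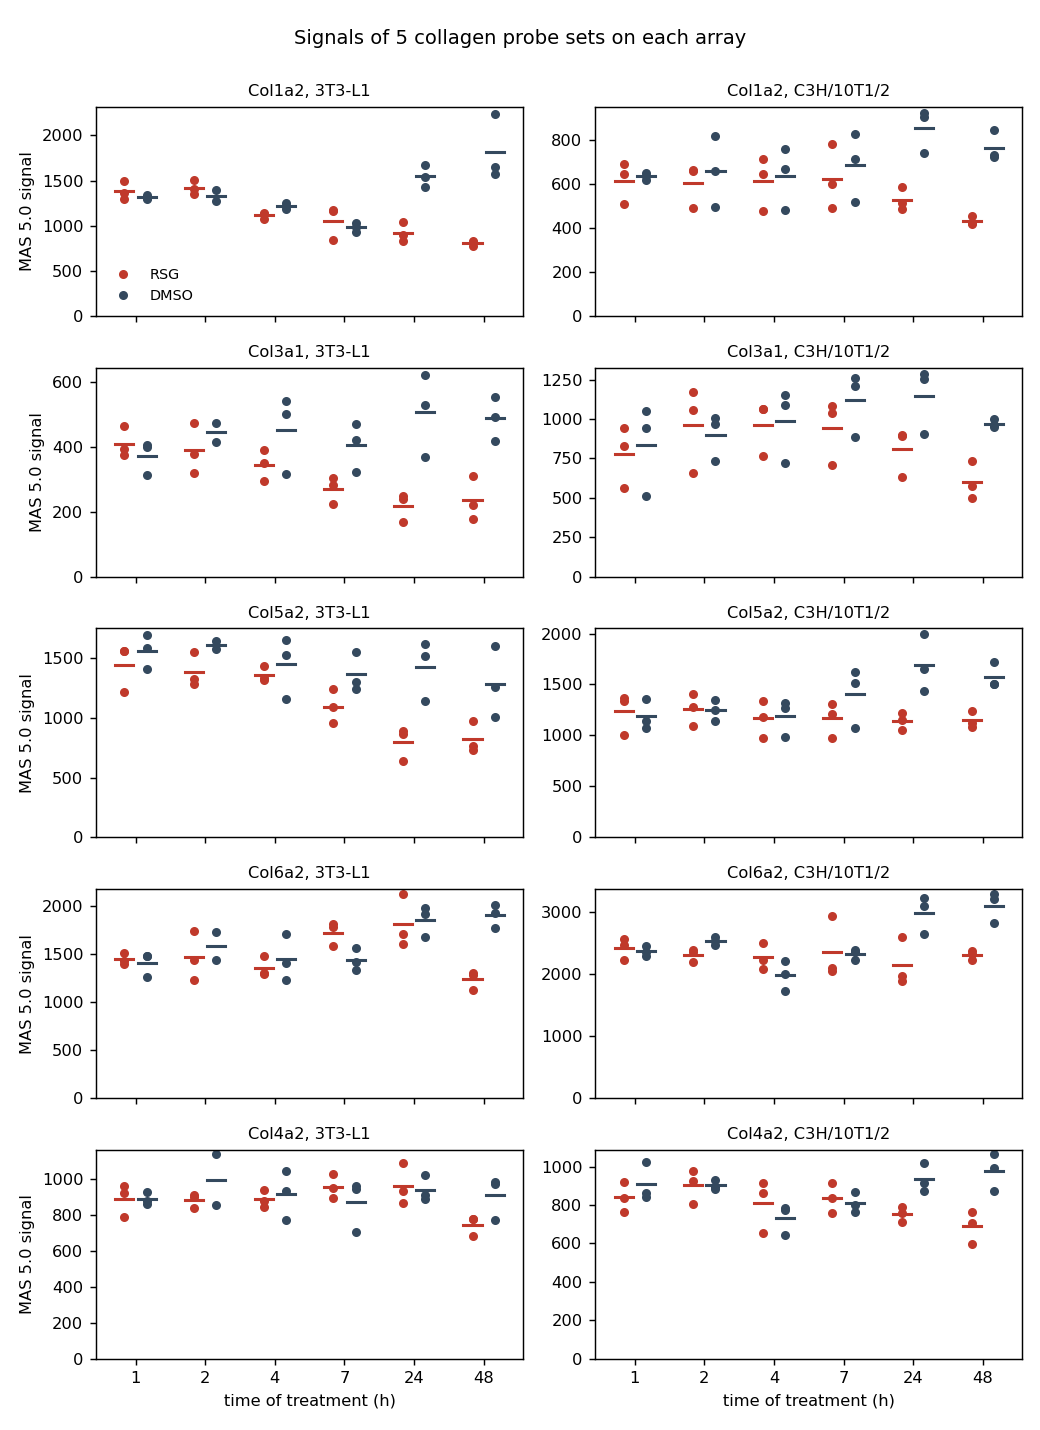
MAS5 signal on every array (points) and group mean (bars) at each time of treatment, RSG in red to the left of DMSO in dark grey, for Col1a2 (1423110_at), Col3a1 (1427884_at), Col5a2 (1422437_at), Col6a2 (1426947_x_at) and Col4a2 (1424051_at) in both lines; axes start at 0. At 48 hrs Col1a2 in 3T3-L1 lies between 779.9 and 827.5 with RSG and between 1572.8 and 2242.0 with DMSO.

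Of 7 type IV probe sets, 1 was lower at each time in 3T3-L1, and 0 at 24 hrs and 1 at 48 hrs in C3H/10T1/2. Their median log2 fold change was -0.01 at 24 hrs and -0.22 at 48 hrs for 3T3-L1, and -0.31 and -0.32 for C3H/10T1/2. Col4a5, a chain found in specialised basement membranes such as that of the kidney, read 131.8, 207.2 and 228.5 with RSG at 24 hrs in 3T3-L1, against 272.9, 325.6 and 350.1 with DMSO (-0.77, SE 0.21, adjusted p = 0.0109). After 48 hrs it read 149.0, 189.2 and 218.4 with RSG, against 282.5, 302.1 and 316.2 with DMSO (-0.71, SE 0.21, adjusted p = 0.0166). The groups did not overlap. Its dimmer probe set gave no call there (adjusted p = 0.599 and 0.234).

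Col4a5 in C3H/10T1/2 read 75.8, 81.0 and 76.0 with RSG at 24 hrs, against 110.9, 150.1 and 115.0 with DMSO (-0.68, adjusted p = 0.0611, with the replicate block 0.0206), and the log2 fold change was -0.17 at 48 hrs (adjusted p = 0.812). Its dimmer probe set had an adjusted p of 0.0555 at 24 hrs, with the replicate block 0.00557.

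Col4a2 was lower in C3H/10T1/2 at 48 hrs, with 763.9, 599.9 and 707.5 with RSG, against 1064.0, 991.7 and 871.0 with DMSO (-0.50, SE 0.12, adjusted p = 0.0115). The RSG arrays all lay below the DMSO arrays. Its head-to-head neighbour Col4a1 averaged 2006 with RSG, against 2502 with DMSO (-0.32, adjusted p = 0.114, with the replicate block 0.0342), and its second probe set gave -0.37 on the log2 scale (adjusted p = 0.0807, with the replicate block 0.0391). At 24 hrs in this line, Col4a1 (-0.29, adjusted p = 0.134, with the replicate block 0.0468) and Col4a2 (-0.31, adjusted p = 0.137) had similar values. In 3T3-L1 neither was called, at -0.16 and -0.21 for Col4a1 and 0.03 and -0.28 for Col4a2 at 24 and 48 hrs. Col4a3 and Col4a6 were not called in either line.

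Of the 4 type VI probe sets, those of Col6a1, the brightest of Col6a2 and that of Col6a3 were not called with RSG at any time. The second probe set of Col6a2, 1426947_x_at, was called at 48 hrs in 3T3-L1 and at both times in C3H/10T1/2. In 3T3-L1 it read 1131.7, 1288.1 and 1309.7 with RSG at 48 hrs, against 1777.9, 2011.9 and 1932.2 with DMSO (-0.62, SE 0.13, adjusted p = 0.00101), and showed no difference past the threshold at 24 hrs (-0.04, adjusted p = 0.896). The C3H/10T1/2 arrays read 1882.5, 1968.1 and 2589.3 with RSG at 24 hrs, against 3099.2, 2645.6 and 3217.4 with DMSO (-0.49, SE 0.12, adjusted p = 0.00991). At 48 hrs it read 2365.4, 2219.0 and 2319.7 with RSG, against 3286.0, 3200.9 and 2814.7 with DMSO (-0.43, SE 0.12, adjusted p = 0.0313).

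These groups of Col6a2 did not overlap. The suffix _x_at marks a probe set whose probes can also bind other transcripts, so the call of Col6a2 rests on the less specific of its probe sets. The brightest gave -0.30 on the log2 scale at 48 hrs in 3T3-L1 (adjusted p = 0.194) and of -0.32 in C3H/10T1/2 (adjusted p = 0.199). The partner chains had -0.22 (Col6a1) and -0.29 (Col6a3) at 48 hrs for 3T3-L1, with -0.35 and -0.14 for C3H/10T1/2.

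Among the other types, 3T3-L1 had 2 of 18 probe sets lower at 24 hrs and 1 at 48 hrs, and C3H/10T1/2 had 1 and 2 of 12. The 3T3-L1 count at 48 hrs, 1 of 18, lay below the 8.09% of all probe sets that were lower then. The remaining counts of this class lay above the matching shares, but rest on 1 or 2 probe sets each. All but 1 of these calls belonged to Col18a1, a proteoglycan collagen of the basement membrane zone from which endostatin is cut. In 3T3-L1 its brightest probe set, 1426955_at, read 191.8, 202.4 and 196.0 with RSG at 24 hrs, against 286.6, 326.5 and 354.7 with DMSO (-0.71, SE 0.23, adjusted p = 0.0394), and its log2 fold change at 48 hrs was -0.61 (adjusted p = 0.0736). The second, 1418237_s_at, read 152.4, 164.6 and 155.0 with RSG at 24 hrs, against 248.5, 338.5 and 360.4 with DMSO (-0.99, SE 0.28, adjusted p = 0.0164). After 48 hrs it read 66.7, 204.0 and 170.6 with RSG, against 219.2, 297.7 and 259.4 with DMSO (-0.96, adjusted p = 0.0175). The RSG arrays lay below the DMSO arrays in each case. Without the lowest RSG array the log2 fold change at 48 hrs was -0.46, and the call was lost in 2 of the 6 refits that left out an array.

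In C3H/10T1/2, where Col18a1 was dimmer, 1426955_at read 67.1, 49.3 and 11.7 with RSG at 48 hrs, against 100.6, 85.6 and 91.9 with DMSO (-1.45, SE 0.34, adjusted p = 0.00625). The lowest RSG array was under the presence level, and without it the log2 fold change was -0.69 and the call was lost. The second probe set read 25.7, 33.7 and 40.5 with RSG, against 77.4, 80.6 and 50.8 with DMSO (-1.06, SE 0.28, adjusted p = 0.0183). At 24 hrs neither was called (-0.57 and -0.72, adjusted p = 0.361 and 0.122).

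Col16a1, which associates with the surface of fibrils, was the other call. At 24 hrs in C3H/10T1/2 it read 27.5, 55.8 and 78.1 with RSG, against 107.4, 71.0 and 101.3 with DMSO (-0.90, SE 0.28, adjusted p = 0.0451), and these groups overlapped. Without the lowest RSG array the log2 fold change was -0.47, and the call was lost in 4 of the 6 refits that left out an array. It was not called at 48 hrs (-0.33) or in 3T3-L1 (-0.28 and -0.40). Col15a1, the relative of Col18a1, had log2 fold changes of 0.30 and -0.16 with 3T3-L1, and of -0.10 and -0.33 with C3H/10T1/2, none of them called. Among values that were not called, Col8a1 averaged 18.5 with RSG at 48 hrs in 3T3-L1, against 45.4 with DMSO (-1.53, adjusted p = 0.0760), and Col25a1, a transmembrane collagen, averaged 122 against 64.0 (1.02, adjusted p = 0.0649). Col7a1, Col9a1, Col12a1, Col13a1, Col14a1, Col19a1, Col20a1 and Col26a1 were not called where they were tested.

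Calls were not always shared by all probe sets of a gene. In 3T3-L1, 13 genes had at least 2 tested probe sets. All of a gene's probe sets were called lower at 24 hrs for 2 of these genes, some for 3 and none for 8, and at 48 hrs the counts were 2, 7 and 4. With 10 such genes in C3H/10T1/2, they were 1, 3 and 6 at 24 hrs and 2, 4 and 4 at 48 hrs. Counted by the brightest probe set alone, 4 of 29 genes were lower at each time in 3T3-L1. Of 27 genes tested in C3H/10T1/2, 4 were lower at 24 hrs and 5 at 48 hrs.

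**Figure D4:**
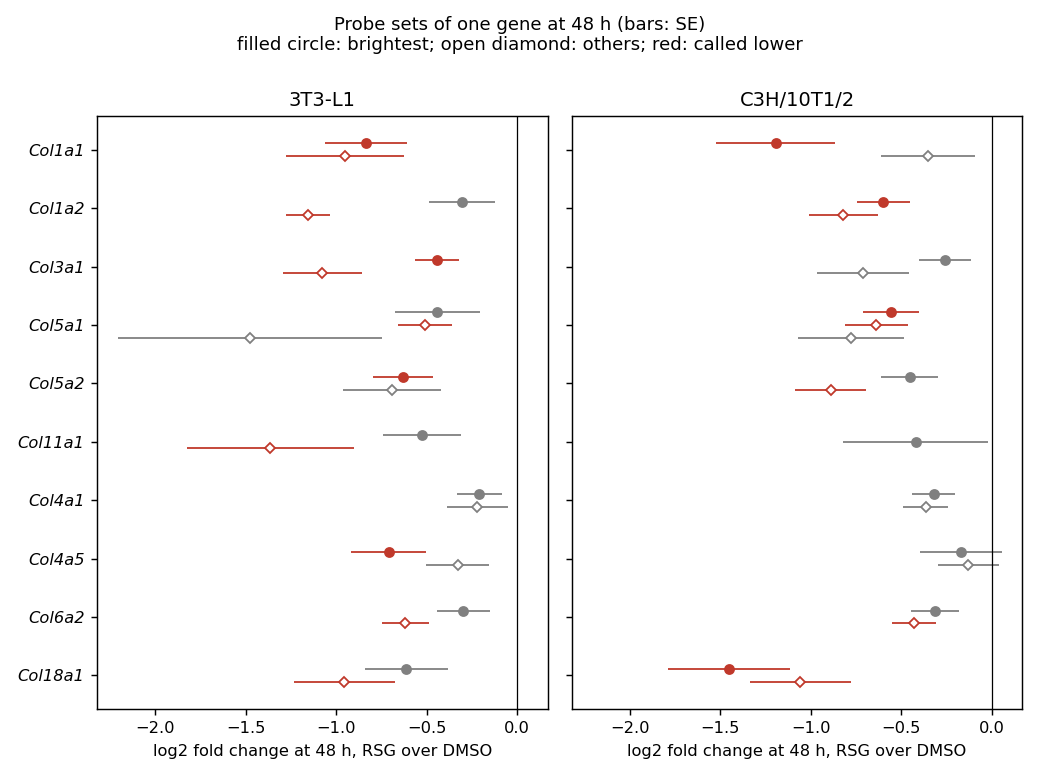
Log2 fold change of RSG over DMSO at 48 hrs (points, with SE bars) for each tested probe set of 10 collagen genes with several probe sets; filled circles mark the brightest probe set of a gene, open diamonds the others, and red a call. In 3T3-L1 the probe sets of Col1a2 lie at -1.15 and -0.30, while in C3H/10T1/2 they lie at -0.82 and -0.60.

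By any probe set, 11 genes were called at 24 or 48 hrs in at least 1 line, 9 of them in 3T3-L1 and 8 in C3H/10T1/2. At 24 hrs, 5 genes were lower in each line and Col1a2 and Col5a2 were shared, 40% of each list. At 48 hrs, 9 genes were lower in 3T3-L1 and 7 in C3H/10T1/2, and Col1a1, Col1a2, Col5a1, Col5a2, Col6a2 and Col18a1 were shared, 66.7% and 85.7% of the lists. Counted by probe set, 2 calls were common to both lines at 24 hrs, where 3T3-L1 had 7 and C3H/10T1/2 had 6. At 48 hrs 5 were common, where the lines had 11 and 10. Col5a2 was shared at 48 hrs as a gene only, through 1422437_at for 3T3-L1 and 1450625_at for C3H/10T1/2. The difference between the lines was tested directly, as the RSG effect in 3T3-L1 minus that in C3H/10T1/2. Of 45 collagen probe sets, 0 were called at 24 hrs, against 0.257% of all 18274, and 0 at 48 hrs, against 0.848% (limma; at an unadjusted p under 0.05, 6 higher and 0 lower at 24 hrs, 3 higher and 2 lower at 48 hrs). With the replicate block within each line, 1 was called at each time, where 0.897% of all probe sets were called at 24 hrs and 2.14% at 48 hrs. These were Col3a1 (1427884_at) at 24 hrs (-0.69, adjusted p = 0.0242) and Col8a1 at 48 hrs, whose signals were under the presence level in C3H/10T1/2, so that no fold is given.

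Whether the effect of RSG differed between late and early times was also tested, by a comparison chosen after seeing the data: the RSG effect at 24 or 48 hrs minus its mean over 1, 2, 4 and 7 hrs. In 3T3-L1, 3 of 44 collagen probe sets were lower at 24 hrs on this measure (2.25% of all probe sets were) and 4 at 48 hrs (3.67%). Of 38 in C3H/10T1/2, 2 were lower at 24 hrs (1.04%) and 3 at 48 hrs (1.04%). No collagen probe set was higher, with 3 and 1 at an unadjusted p under 0.05 in 3T3-L1 at 24 and 48 hrs and 0 in C3H/10T1/2 at either. The median over the collagen probe sets was -0.12 and -0.28 in 3T3-L1, where that of all probe sets was -0.02 and -0.04, and -0.32 and -0.34 in C3H/10T1/2, where it was -0.04 and 0.01. With the replicate block, the C3H/10T1/2 counts were 6 (2.68% of all probe sets) and 13 (2.28%). For Col1a2 (1423110_at) in 3T3-L1, the mean effect over the early times was 0.03 and the late minus early difference was -0.79 at 24 hrs and -1.19 at 48 hrs.

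Levels with DMSO showed which collagens these adipocytes expressed. Signals of different probe sets cannot be set against each other, so levels are compared between the lines, probe set by probe set, over 17 DMSO arrays of 3T3-L1 and 18 of C3H/10T1/2. The median of all 18274 probe sets was 0.32 higher in 3T3-L1 on the log2 scale, and cell type and culture protocol cannot be told apart in this comparison. Arrays of different times can share a batch of cells, so these are not 17 and 18 independent cultures. The fit treats the arrays as independent, and an SD over them mixes times and batches. Of 45 collagen probe sets, 23 were higher in 3T3-L1 (51.1%, against 55.1% of all) and 14 were lower (31.1%, against 22.4%). After quantile normalization the counts were 19 and 15. By class, 6 of 16 fibrillar probe sets were higher and 8 lower, 5 of 7 of type IV were higher and 1 lower, 0 of 4 of type VI were higher and 4 lower, and 12 of 18 of the other types were higher and 1 lower.

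Col15a1 stood out among the lower ones, with 265 ± 38.7 in 3T3-L1 and 1269 ± 235 in C3H/10T1/2 (SD, n = 17 and 18), a log2 difference of -2.25. Its highest 3T3-L1 array, at 327.5, lay below its lowest C3H/10T1/2 array, at 823.6. Col5a3 (-0.83) and the chains of type VI were also lower in 3T3-L1, at -0.24 for Col6a1, -0.48 for Col6a2 and -0.52 for Col6a3. The signal of type VI was far above the presence level in both lines, with 3733 ± 357 for Col6a1 in 3T3-L1 and 4419 ± 467 in C3H/10T1/2.

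Col18a1 averaged 264 ± 62.6 in 3T3-L1 and 86.1 ± 14.8 in C3H/10T1/2, a log2 difference of 1.60, and the second probe set gave 2.35. Col16a1 (1.41), Col4a5 (1.35), Col1a2 (1.12), Col11a1 (1.05) and Col7a1 (0.97), the collagen of anchoring fibrils in skin, were likewise higher in 3T3-L1. For Col18a1, Col16a1, Col4a5 and Col1a2 no array of one line reached those of the other. After quantile normalization none of these called genes turned direction. Col8a1 was under the presence level on all 18 C3H/10T1/2 arrays, and no fold is given. Probe sets of some genes did not give one direction: Col5a1 had 0.83 by the brightest probe set, -0.17 by 1434479_at and -1.73 by 1416741_at, and Col4a1 had -0.31 and 0.25. Col1a1 and Col5a2 were not called by their brightest probe sets (0.11 and 0.08) and were lower by the second (-1.01 and -0.98).

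**Figure D5:**
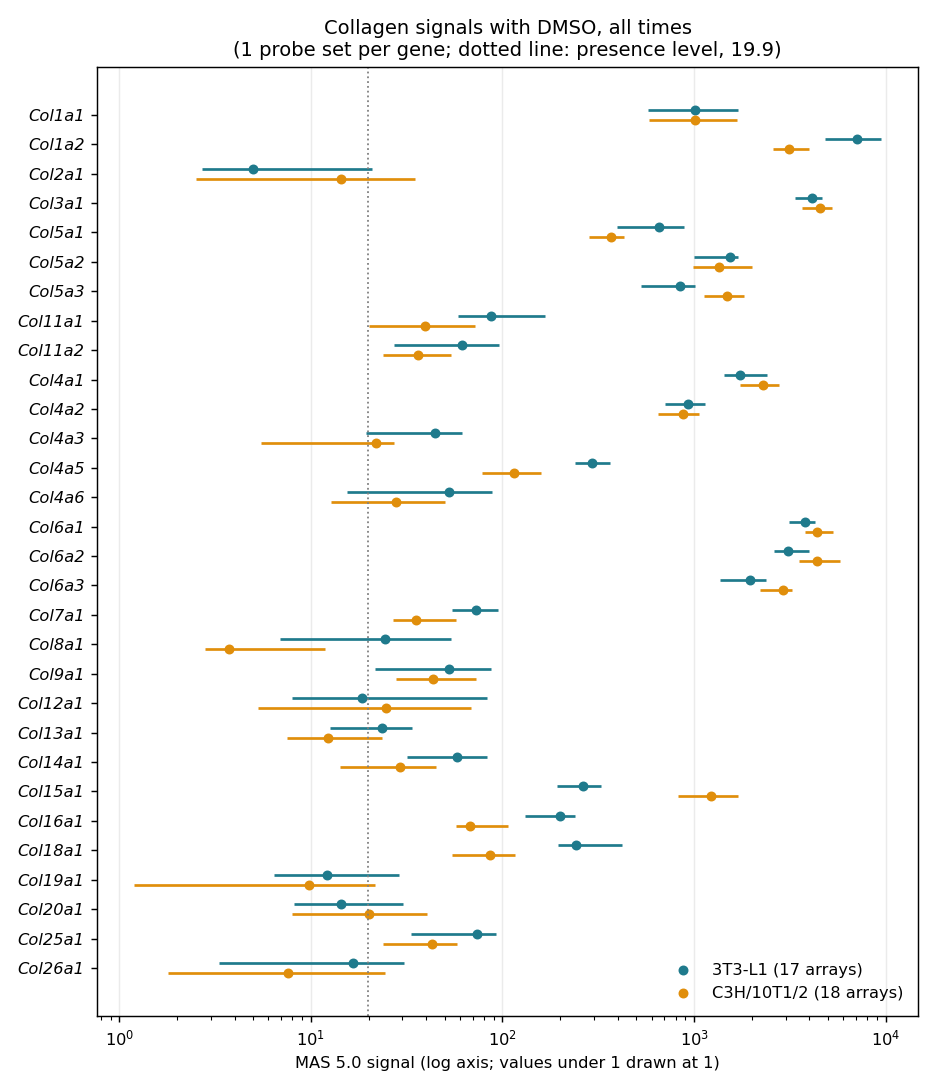
MAS5 signals with DMSO for the brightest probe set of each tested collagen gene on a log axis, with the median (points) and the range from the lowest to the highest array (lines), for 3T3-L1 (17 arrays) and C3H/10T1/2 (18 arrays); the dotted line is the presence level. The lines of Col15a1 do not touch (192.9 to 327.5 in 3T3-L1, 823.6 to 1704.5 in C3H/10T1/2), while those of Col1a1 overlap (577.5 to 1690.6 and 583.9 to 1666.7).

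Without RSG, few collagen probe sets changed over the course of the experiment by the fit without a replicate block. Each later time with DMSO was set against 1 hr, and these DMSO arrays are the same as those used against RSG. In 3T3-L1, no collagen probe set was called at 2, 4, 7 or 24 hrs, where the share of all probe sets called in either direction was 0.0166%, 0.0721%, 0.0832% and 0.949%, and 1 of 44 was higher at 48 hrs, against 0.577% of all. At an unadjusted p under 0.05, collagen counts at those 4 earlier times were 1 higher and 2 lower, 0, 3 lower, and 1 higher and 2 lower. The call was Col1a2 (1423110_at), at 1822 ± 366 at 48 hrs and 1313 ± 21.8 at 1 hr (SD, n = 3 each), a log2 difference of 0.45 (SE 0.12, adjusted p = 0.0428). It was lost without any 1 of the 3 arrays at 1 hr.

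In C3H/10T1/2 without the block, none was called at 2 hrs (0.8% of all probe sets in either direction, and 0 collagen probe sets at an unadjusted p under 0.05). None was called at 4 hrs (5.5% of all, and 3 collagen probe sets lower unadjusted). Higher were 2 of 38 at 7 hrs (5.67% of all), 2 at 24 hrs (6.25%) and 2 at 48 hrs (5.09%). Without the block the collagen shares were thus near those of all probe sets. Col5a3 averaged 1609 ± 72.7 at 7 hrs, 1694 ± 114 at 24 hrs and 1566 ± 91.0 at 48 hrs, against 1207 ± 97.9 at 1 hr (log2 differences of 0.42, 0.49 and 0.38, adjusted p = 0.0177, 0.00374 and 0.0311). Col5a2 was higher at 7 hrs by 1450625_at (0.62, adjusted p = 0.0382) and at 24 hrs by 1422437_at (0.50, adjusted p = 0.0344), and Col6a2 was higher at 48 hrs by 1426947_x_at (0.39, adjusted p = 0.0362). With the replicate block the counts were 3 at 7 hrs (7.89%, against 8.69% of all probe sets), 10 at 24 hrs (26.3%, against 9.38%) and 4 at 48 hrs (10.5%, against 7.71%). The blocked share at 24 hrs was thus above that of all probe sets, and the 10 also held Col1a1, Col1a2, Col3a1 and Col18a1. Of the calls without the block, Col5a3 at 24 hrs was the only one kept whichever array was left out. A value lower with RSG than with DMSO at the same time can therefore hold a rise with DMSO. Col5a2 (1422437_at) averaged 1239, 1141 and 1151 with RSG at 1, 24 and 48 hrs, and 1191, 1694 and 1577 with DMSO. For Col1a2 (1450857_a_at) the means were 2803, 2416 and 2132 with RSG, and 2971, 3879.5 and 3222 with DMSO. How much of each call was such a rise was not tested.

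Genes that act on collagen were followed from fixed lists, each by its brightest probe set. Of 16 genes of synthesis and modification, 2 were higher and 2 lower at 24 hrs in 3T3-L1, and 3 higher and 5 lower at 48 hrs. The counts in C3H/10T1/2 were 1 higher and 1 lower at 24 hrs, near the shares of all probe sets, and 0 higher and 2 lower at 48 hrs. Enzymes that hydroxylate proline and lysine in collagen chains were among the higher ones. P4ha1, a catalytic subunit of prolyl 4-hydroxylase, averaged 323 ± 54.5 with RSG at 24 hrs in 3T3-L1 and 185 ± 15.9 with DMSO (SD, n = 3 each, log2 fold change 0.80, adjusted p = 0.000383), and 343 ± 21.3 and 167 ± 29.9 at 48 hrs (1.05, adjusted p = 6.47e-06). P4ha2, its relative, averaged 329 ± 98.8 with RSG at 48 hrs and 122 ± 39.1 with DMSO (1.44, adjusted p = 0.00343), and 485 ± 40.0 and 260 ± 63.2 at 24 hrs in C3H/10T1/2 (0.92, adjusted p = 0.00208). Plod1, a lysyl hydroxylase, averaged 725 ± 78.1 and 346 ± 114 at 48 hrs in 3T3-L1 (1.12, adjusted p = 3.89e-05).

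Chaperones and partners of prolyl 3-hydroxylase were among the lower ones. Crtap averaged 672 ± 92.1 with RSG at 48 hrs in 3T3-L1 and 1298 ± 153 with DMSO (-0.95, adjusted p = 2.81e-05), and it was lower at both times in both lines. Ppib, which forms a complex with Crtap, was lower at both times in 3T3-L1 (-0.55 and -0.65) and at 48 hrs in C3H/10T1/2 (-0.44, adjusted p = 0.0464). Serpinh1, the collagen chaperone HSP47, averaged 878 ± 150 with RSG at 48 hrs in 3T3-L1 and 1424 ± 135 with DMSO (-0.71, adjusted p = 0.00918). The list therefore held calls in both directions in 3T3-L1.

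Among 8 tested genes of procollagen trimming and crosslinking, 0 were higher and 1 was lower at 24 hrs in 3T3-L1, and 4 were lower at 48 hrs. For C3H/10T1/2, 3 and 1 were lower and 0 were higher. Pcolce, which speeds the removal of the C-terminal propeptide of fibrillar procollagens, averaged 1386 ± 144 with RSG at 24 hrs in 3T3-L1 and 2844 ± 208 with DMSO (-1.04, adjusted p = 1.4e-06), and 1356 ± 167 and 2936 ± 583 at 48 hrs (-1.10, adjusted p = 2.94e-07). It was lower in C3H/10T1/2 too (-0.87 and -0.71). Sparc, a collagen-binding matrix protein, averaged 3747 ± 553 with RSG at 48 hrs in 3T3-L1 and 6262 ± 558 with DMSO (-0.75, adjusted p = 1.22e-05). Loxl1, a lysyl oxidase relative, was lower at 48 hrs in 3T3-L1 (-0.59) and at 24 hrs in C3H/10T1/2 (-0.61), and Bmp1, the C-proteinase itself, at 48 hrs in 3T3-L1 (-0.60).

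Of 6 collagen receptors tested in 3T3-L1, 1 was lower at 24 hrs and 3 at 48 hrs, and of 5 in C3H/10T1/2, 1 was lower at 24 hrs and 0 at 48 hrs, with 0 higher. Ddr1, a receptor tyrosine kinase for collagen, was lower at both times, and averaged 53.8 ± 24.3 with RSG at 48 hrs in 3T3-L1 and 138 ± 23.8 with DMSO (-1.46, adjusted p = 5.25e-05). Ddr2 (-1.11) and Mrc2 (-1.29), which takes up collagen for degradation, were lower at 48 hrs. Itgb1, the common subunit of collagen-binding integrins, was lower at 24 hrs in C3H/10T1/2 (-0.58, adjusted p = 0.0332).

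Marker lists of other cell types were read beside these results. All 8 adipocyte markers on the list were tested in both lines. Cidec, a lipid droplet protein, was higher and Pparg lower with RSG at both times in 3T3-L1, and Pparg was lower at 48 hrs in C3H/10T1/2. Of 10 fibroblast and preadipocyte markers in 3T3-L1, RSG left 4 lower after 24 hrs and 6 lower after 48 hrs, with 0 higher. The shares of all probe sets lower in 3T3-L1 were 6.97% and 8.09%. Of the 8 such markers tested in C3H/10T1/2, where Fap was under the presence level on all arrays, 3 were lower at each time and Twist2 was higher at 48 hrs. In this line 4.07% and 2.62% of all probe sets were lower. Pdgfrb, a marker of preadipocytes, averaged 79.8 ± 30.9 with RSG at 24 hrs in 3T3-L1 and 184 ± 22.4 with DMSO (-1.27, adjusted p = 0.000378), and 67.7 ± 14.9 and 176 ± 23.8 in C3H/10T1/2 (-1.40, adjusted p = 0.000213).

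The summed signal of the fibroblast list ranged from 6157.8 to 8049.7 with RSG at 24 hrs in 3T3-L1 and from 8997.8 to 10306.3 with DMSO, and at 48 hrs from 7224.6 to 7500.4 and from 10388.7 to 11547.7. The sum in C3H/10T1/2 ranged from 4997.8 to 5916.0 with RSG and from 6035.3 to 7075.5 with DMSO at 24 hrs, and from 5094.7 to 5451.8 and from 5616.6 to 6024.2 at 48 hrs. Such sums follow the brightest probe sets of the list and say little of dim ones such as Pdgfrb. By the brightest probe sets, the median log2 fold change of the fibroblast list in 3T3-L1 was -0.55 at 24 hrs and -0.74 at 48 hrs. That of all 29 tested collagen genes was 0.03 and -0.21. Among these, the 8 fibrillar genes had -0.22 and -0.44, and the 13 genes of other types 0.18 and 0.24. In C3H/10T1/2 the fibroblast list had -0.47 and -0.37, and the collagen genes -0.30 and -0.33. There the fibrillar genes had -0.45 at both times, and the other types -0.05 and -0.14. The medians of the fibroblast list and of all tested collagen genes thus differed more in 3T3-L1 than in C3H/10T1/2, at both times. The part of this list in the lower collagen signals was not tested. In bulk RNA, fewer cells of a type and less RNA per cell cannot be told apart.

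Of the remaining lists, 1 smooth muscle marker, Acta2, was lower at 24 hrs in 3T3-L1 (-0.72, adjusted p = 0.0151), and 1 chondrocyte marker, Comp, was lower at 48 hrs in C3H/10T1/2 (-0.97, adjusted p = 0.0202). No marker of skeletal muscle, osteoblasts, endothelium or leukocytes was called at 24 or 48 hrs. Under the presence level on all C3H/10T1/2 arrays were Tagln, Cnn1 and Myocd of smooth muscle, Pecam1 and Tie1 of endothelium, and Ptprc and Itgam of leukocytes, and in 3T3-L1 Cnn1, Tie1 and Itgam. Other markers of these lists had a group mean at the presence level. In 3T3-L1 these were 5 of 7 for smooth muscle, 5 of 6 for endothelium and 4 of 6 for leukocytes. The counts in C3H/10T1/2 were 3 of 7, 2 of 6 and 4 of 6.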

How the data were processed

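Per the labels, the authors deposited MAS5 signal intensity values of 71 arrays, with the trimmed mean of each array (2% left out at each end) at 150.1. The depth of an array has no count here, so precision rests on the 3 arrays of a group. Signals were taken to log2, with the 132 values of 0 set to 0.1. Tests were run in limma 3.58.1 (R 4.3.3), with lmFit and eBayes with an intensity trend, 1 mean per group and all arrays of a line in 1 fit, after a filter on group means at the presence level of the methods (bacterial controls, 27 probe sets, had a 95th percentile of 19.92). A joint fit of both lines gave the differences between them. Of 22690 probe sets, 64 were controls and 20380 named 1 gene. Figures were drawn with matplotlib 3.10.9. The scripts were tested on simulated data.

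The members and gene lists were chosen with earlier results of these data known. Every gene matching the rule was a member; per-array signals were given for up to 4 called genes of each class and line with the largest changes, and list genes were named up to 3 per direction. Further probe sets were named where their call differed. Same-numbered replicates deviated together in all 18 pairs of C3H/10T1/2 groups (r between 0.178 and 0.404), so blocked values are given there. In 3T3-L1 this held for 16 of 17 pairs, and its blocked values are given only with the alternatives. A blocked value printed for C3H/10T1/2 alone is therefore not a difference between the lines. Alternatives were quantile normalization, no filter, a floor at the presence level, no trend, only the groups compared, a replicate block, each array left out, other probe sets of a gene, and the methods' analysis of variance (p under 0.05 and a change over 1.2-fold). The comparison of late with early times was chosen after seeing the data. Promoter windows came from RefSeq; protein features were not analysed here.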

Additional observations from a re-analysis of the deposited data

Results flagged for a closer look

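The results here are those for which the effect of RSG itself differed between times, as tested by the effect at 24 or 48 hrs minus its mean over 1, 2, 4 and 7 hrs (log2 scale, limma, adjusted over all tested probe sets). The 12 values were all negative, and the comparison was chosen after seeing the data.

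In 3T3-L1 at 24 hrs, the difference was -0.79 for Col1a2 (1423110_at, adjusted p = 0.000509), -0.94 for Col3a1 (1427884_at, adjusted p = 0.0222) and -0.65 for Col5a2 (1422437_at, adjusted p = 0.0399). At 48 hrs it was -1.19 for Col1a2 (adjusted p = 4.84e-07), -0.83 for Col3a1 (adjusted p = 0.0366), -0.54 for Col5a1 (1434479_at, adjusted p = 0.0435) and -0.65 for Col6a2 (1426947_x_at, adjusted p = 0.00421). The mean effect over the early times was 0.03 for Col1a2, -0.25 for Col3a1, -0.18 for Col5a2, 0.03 for Col5a1 and 0.03 for Col6a2.

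In C3H/10T1/2 at 24 hrs, the difference was -0.58 for Col1a2 (1450857_a_at, adjusted p = 0.0488) and -0.51 for Col6a2 (1426947_x_at, adjusted p = 0.0383). At 48 hrs it was -0.80 for Col5a2 (1450625_at, adjusted p = 0.0490), -0.52 for Col4a2 (adjusted p = 0.0437) and -1.43 for Col18a1 (1426955_at, adjusted p = 0.0387). The value of Col18a1 rests on RSG arrays of which 1, at 11.7, was under the presence level. In C3H/10T1/2 these calls depended on single arrays: the count at 24 hrs moved by over 1.5 times for 25 of the 30 arrays left out in turn (0 to 2 called), and that at 48 hrs for 19 of 30 (0 to 5 called). In 3T3-L1 the counts moved so for 5 and 3 of 29 arrays (1 to 5 and 2 to 5 called).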

How the results depend on the processing

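Counts are of collagen probe sets, and values of the same setting are given together. With the methods' analysis of variance, unadjusted, 3T3-L1 had 2 called at 2 hrs and 1 at 7 hrs of RSG (0 in the report), 1 higher at 48 hrs, and with DMSO over time 3 at 2 hrs, 4 at 7 hrs, 3 at 24 hrs and 2 lower and 5 higher at 48 hrs. C3H/10T1/2 had 1 at 1 hr, 3 at 7 hrs, 16 lower at 24 hrs and 18 lower at 48 hrs of RSG, and with DMSO 3 at 4 hrs, 2 lower at 7 hrs, 1 lower and 8 higher at 24 hrs and 2 lower and 6 higher at 48 hrs. For late minus early effects it gave 6 lower and 3 higher at 24 hrs and 12 lower and 1 higher at 48 hrs in 3T3-L1, and 13 and 16 lower in C3H/10T1/2. After Benjamini-Hochberg adjustment it gave 1 higher at 7 hrs with DMSO and 1 lower late minus early at each time in C3H/10T1/2.

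In 3T3-L1 the numbers were not taken to pair the arrays because 1 of 17 correlations was only 0.030. With the replicate block this line had 2 called at 7 hrs of RSG, Col3a1 (1427884_at) and Col5a2 (1450625_at). It had 1 higher at 48 hrs of RSG, Col25a1 (1.02, limma with the block, adjusted p = 0.0131). With DMSO it had 1 lower and 4 higher at 48 hrs, and late minus early 7 lower at 24 hrs and 12 lower and 1 higher at 48 hrs. C3H/10T1/2 had 11 and 16 lower with RSG at 24 and 48 hrs, 10 and 4 higher with DMSO, and 6 and 13 lower late minus early, and the line difference in the RSG effect had 1 at each time. The block moved no other count by over 1.5 times. Lower with RSG in 3T3-L1 were then 10 of 44 at 24 hrs (22.7%, against 9.33% of all probe sets). At 48 hrs they were 14 of 44 (31.8%, against 10.2%). Among them was Col5a2 (1450625_at) at both times (limma with the block, adjusted p = 0.00149 and 0.00247).

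With only the groups compared, 3T3-L1 had 1 higher at 24 hrs and 6 lower at 48 hrs of RSG and 0 higher at 48 hrs with DMSO, and C3H/10T1/2 had 3 and 5 lower with RSG, 0 higher at 48 hrs with DMSO, and 0 and 1 lower late minus early. With quantile normalization, 1 was higher at 48 hrs of RSG and 2 higher at 48 hrs with DMSO in 3T3-L1, and in C3H/10T1/2 10 were lower at 24 hrs of RSG and, with DMSO, 1 lower at 7 hrs, 6 higher at 24 hrs and 4 higher at 48 hrs. Without the trend, 0 were higher at 48 hrs with DMSO and 2 lower late minus early at 48 hrs in 3T3-L1, and in C3H/10T1/2 1 was called at 4 hrs, 1 higher at 7 hrs, 1 lower and 1 higher at 24 hrs and 1 higher at 48 hrs with DMSO, with 0 late minus early at both times. Without the filter, 0 were higher at 48 hrs with DMSO in 3T3-L1, and in C3H/10T1/2 1 was higher at 7 hrs and 1 lower and 1 higher at 48 hrs, with 0 late minus early at both times. With signals floored at the presence level, 3 were higher at 48 hrs with DMSO in 3T3-L1, 1 was lower late minus early at 24 hrs in C3H/10T1/2, and 2 differed between the lines at 48 hrs.

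Leaving out each array in turn, the lower counts with RSG ranged from 3 to 10 and from 5 to 10 at 24 and 48 hrs in 3T3-L1 (higher at 48 hrs, 0 to 1), and from 2 to 5 and from 4 to 8 in C3H/10T1/2. With DMSO they ranged from 0 to 1 lower and 0 to 1 higher at 48 hrs in 3T3-L1, and in C3H/10T1/2 from 0 to 2 higher at 7 hrs, 0 to 1 lower and 1 to 3 higher at 24 hrs, and 0 to 1 higher at 48 hrs. Late minus early they ranged from 1 to 5 lower at 24 hrs and 2 to 5 lower and 0 to 1 higher at 48 hrs in 3T3-L1, and from 0 to 2 and 0 to 5 lower in C3H/10T1/2, between the lines from 13 to 14 lower and 22 to 24 higher, and for the difference in RSG effect at 48 hrs from 0 to 1. The cause of these changes was not tested, apart from the smaller number of arrays where arrays were left out.

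For single genes, 560 of 646 refits under other settings kept the call, 86 lost it and 0 turned direction. Leaving out an array kept 1641 of 1893. The 3 values that turned direction were line differences of other probe sets: Col5a1 at -1.73 and -0.17, where the brightest gave 0.83, and Col4a1 at 0.25, where the brightest gave -0.31. Signals near the presence level, such as those of Col2a1, Col8a1 and Col11a1 (1449154_at), are close to the background of the array.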
